A study of Mus musculus with 89 samples.

Results

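Long skipped exons are the internal exons of 300 nt or more that some transcripts of a gene include and others leave out. They were taken by length alone from the 2 deposited tables of exon skipping events, as the distance from the start to the end of the exon. In the table of libraries after herpes simplex virus (HSV) delivery, 1141 of 27900 events were long, 4.09%, which are 1026 distinct exons in 926 genes. In the table of dCas9-SET2 runs, 238 of 5608 events were long, 4.24%, which are 231 exons in 213 genes. An event is an exon with its neighbours on both sides, so an exon with several neighbours gives several events: 98 long exons of the HSV table had more than 1, and at most 5. Such events share the reads inside the exon and are not independent.

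All RNA came from punches of the nucleus accumbens, a brain region of reward, of wild type C57BL/6 mice at 8 weeks of age. The HSV libraries carried HSV-GFP, HSV-Set2 or HSV-R195G, labelled with 3 libraries each. Set2 is a methyltransferase that places H3K36me3, a histone mark of transcribed gene bodies, and R195G is the label of a changed Set2. The dCas9-SET2 runs carried dCas9-SET2, a Cas9 that does not cut fused to SET2, with a guide labelled SRSF11 or a guide labelled NT, with 16 runs each under 4 sample names. The HSV table holds 2 libraries in its set 1 and 3 in its set 2, while each set of the dCas9-SET2 table holds 16 runs, and neither gives sample names. In each set of the dCas9-SET2 table, the runs at positions 4 and 8 hold the same reads for every event, while no other pair of runs had more than 37.9% of its counts equal. Such a pair was counted as 1 run, which leaves 15 runs a set; the padj and dPSI of the authors' deposited table come as listed, from a table that holds both. Which treatment each set holds was therefore not assigned, and every difference below is set 2 minus set 1 of the same table. Nothing in the labels says that the libraries came from separate animals, so the spread between libraries may be technical. The main limma fit weighted events by read counts and shared its estimate of spread in part over all events. For the deepest events it can therefore take too small a spread between libraries, and its p-values can be too low.

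Most internal exons of mammals are far shorter than 300 nt, and the splicing machinery usually recognises an exon as a unit across its length. Long exons that are spliced in or out often encode whole stretches of protein used in 1 cell type, such as the giant exons of the neuronal ankyrins, which anchor membrane proteins to spectrin along axons. Others are poison exons, which bring in an early stop codon and send the transcript to decay.

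A long exon can also hold a transcription start of its own. In the dCas9-SET2 table, whose coordinates fit GRCm38 (228 of the 229 long exons of genes with a known span lay inside it), 8 of 238 long events had an exon that held a start that RefSeq annotates for their gene, 3.36%, against 25 of 5370 shorter events, 0.466%. Per kilobase of exon the starts numbered 0.0410 in long and 0.0461 in shorter exons, so the share per event differed by length class more than the number per kilobase did. The windows of 3 such starts are shown, since these are long exons whose reads recur below and whose inclusion reads can come from a transcript that begins inside the exon. Each runs 5′ to 3′ on the strand of the gene, from 250 bases before to 50 after the start in RefSeq's GRCm38.p6 annotation, with the start base in capitals.
Ank2 start, chr3:126943337-126943636, minus strand: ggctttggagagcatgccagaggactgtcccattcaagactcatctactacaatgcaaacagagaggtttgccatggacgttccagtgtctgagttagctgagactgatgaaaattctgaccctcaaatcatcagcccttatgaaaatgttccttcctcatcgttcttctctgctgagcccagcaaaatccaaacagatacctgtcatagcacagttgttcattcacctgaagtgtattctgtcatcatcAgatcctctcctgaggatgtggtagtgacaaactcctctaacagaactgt
Gnas start, chr2:174329756-174330055, plus strand: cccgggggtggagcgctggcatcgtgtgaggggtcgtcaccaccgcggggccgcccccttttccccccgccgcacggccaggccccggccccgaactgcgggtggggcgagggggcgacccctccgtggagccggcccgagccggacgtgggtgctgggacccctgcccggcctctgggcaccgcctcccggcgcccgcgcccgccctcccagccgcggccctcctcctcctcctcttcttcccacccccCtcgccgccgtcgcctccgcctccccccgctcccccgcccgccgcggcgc
Hnrnpl start, chr7:28810640-28810939, plus strand: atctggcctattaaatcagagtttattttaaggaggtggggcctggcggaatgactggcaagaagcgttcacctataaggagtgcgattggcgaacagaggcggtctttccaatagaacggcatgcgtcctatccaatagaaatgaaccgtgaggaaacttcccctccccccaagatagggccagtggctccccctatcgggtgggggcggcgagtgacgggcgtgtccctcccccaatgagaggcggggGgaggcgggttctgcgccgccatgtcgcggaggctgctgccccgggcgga
The Ank2 start is base 4422 of its exon of 6198 nt (chr3:126941610-126947807), 71.3% of the way through, and its whole window is exon sequence. That window has 45.0% G and C and 2 CG dinucleotides. The Gnas start is base 1899 of an exon of 2327 nt (chr2:174328108-174330434), and its window, also all exon, has 81.7% G and C and 40 CG dinucleotides. The Hnrnpl start is base 219 of an exon of 497 nt (chr7:28810672-28811168), and part of that window lies before the exon.

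The inclusion level is the share of transcripts with the exon. Any read within the exon adds to inclusion, so inclusion reads were divided by the exon length plus 150 in the HSV table, or plus 99 in the dCas9-SET2 table, and skipping reads by 150 or 99. For long exons this step matters most. Among the 312 long events of the HSV table with enough reads to test, reads that included the exon made up a median share of 0.968 of all reads, while the median inclusion level was 0.857. The same medians were 0.908 and 0.857 in the 7442 shorter events tested. In 38 long events, 12.2%, most reads included the exon while most transcripts, by form length, left it out; this was so in 4.34% of shorter events. In the 24 longest, of 2000 nt or more, the median share of reads was 0.964 and the median inclusion level 0.636.

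**Figure D1:**
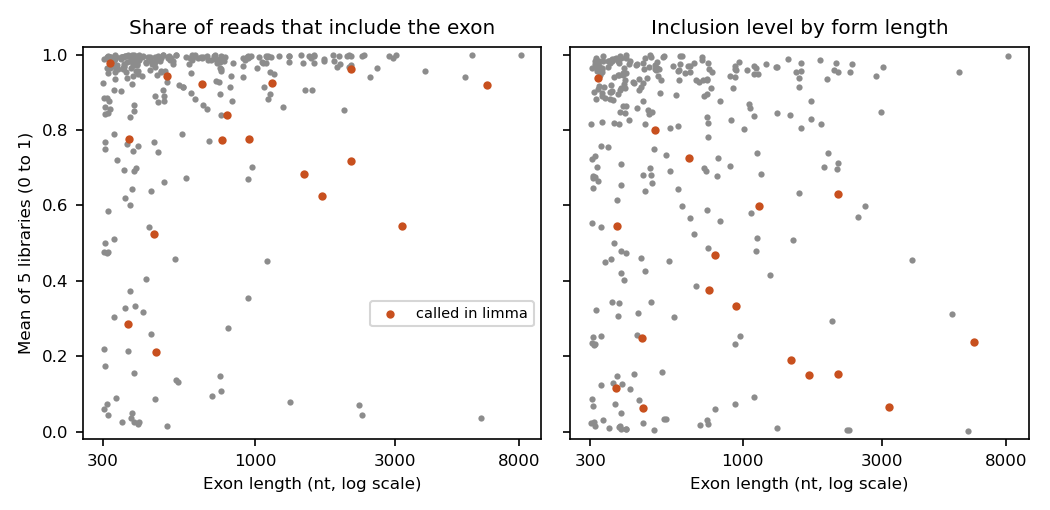
Each point is 1 of the 312 long events tested in the HSV table, by exon length in nt on a log axis. The left panel gives the mean share of reads that include the exon over 5 libraries and the right panel the mean inclusion level by form length; for the 24 events of 2000 nt or more the median is 0.964 on the left and 0.636 on the right, and coloured points are the 17 events called in limma.

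An event was tested where the 5 libraries averaged 20 reads and the rarer of its 2 forms had 10 reads in all. Of the 1141 long events, 91.8% had the reads, against 83.9% of shorter events, but 736 lacked reads of the rarer form, and in 723 of these that form was skipping. The 312 events left, 27.3%, are 293 exons in 276 genes. They had a median of 262 reads per library, of which 7.40 skipped the exon, so the precision of most levels was set by few skipping reads. Inclusion was above 0.9 in 43.3% of these long events and below 0.1 in 10.3%, against 42.3% and 10.5% of shorter events tested. Shorter events tested were 27.8% of those listed and had a median of 9.40 skipping reads per library. Another 15008 shorter events had the reads but lacked those of the rarer form, which was skipping in 14417. Events just inside the length limit (at most 5 nt above 300 nt, 7 tested) had a median inclusion level of 0.561 and a median absolute difference between sets of 0.0478. Those just outside (294 to 299 nt, 15 tested) had 0.872 and 0.0281.

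Library totals over all listed events ran from 7428974 to 8638249 reads, of which 8.34% to 8.94% fell on long events. Markers of the tissue moved between the HSV sets and were summed as counts per 1000000 reads (CPM) of the deepest event of each gene. Of 10 medium spiny neuron markers, 7 had an event; their sum was 4120 and 3413 in set 1 and 1457, 1517 and 1395 in set 2, with 6 of 7 lower in every set 2 library. All 7 oligodendrocyte markers had an event; they summed to 2882 and 4018 in set 1 and 5133, 3987 and 5033 in set 2, with 6 of 7 higher in every set 2 library. Interferon response genes summed to 346 and 443 against 2713, 2511 and 2692, with 27 of 27 listed genes higher in every set 2 library. Astrocyte markers summed to 601 to 839 in set 1 and 874 to 973 in set 2, with 2 of 5 listed genes higher in every set 2 library and 0 lower. Microglia markers summed to 206 to 449 and 500 to 535, with 3 of 5 higher and 0 lower. General neuron markers summed to 1263 to 1633 and 1167 to 1310, with 1 of 3 higher and 2 lower. Vascular markers were low, at 1.97 and 2.51 against 4.20, 4.16 and 2.83, with 2 of 3 higher. The share of all genes higher or lower in every set 2 library was not computed. These counts of markers therefore have no share over all genes beside them. In tissue, fewer cells of a type and less RNA per cell cannot be told apart, and the part of these shifts in the differences of inclusion below was not tested.

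The first question was which long exons differed in inclusion between the HSV sets. Inclusion differed in 17 of the 312 long events tested, 5.45%, where 3.69% of all 7754 events tested were called (limma on the logit of inclusion, adjusted over all events); the excess over that share was not tested. Inclusion was higher in set 2 in 10 events, where 1.69% of all events were called higher, and lower in 7, where 2.00% were called lower. They lie in 16 exons of 16 genes: higher in Ank2, Ncam1, Pam, Spata13, Phf14, Sgip1, Dab2, Srsf3, Iqsec3 and Eef1d, and lower in genes that include Rtn3 (2 events), Map4, Epb41, Syt7 and Nktr. Set 1 and set 2 libraries held separate ranges in each of the 17, and in 93 of the 312 long events, 29.8%, where the same was so for 28.4% of all events tested. An unadjusted p below 0.05 was found in 40 of the 312 long events. The same share over all events was not computed, so this count does not set long exons apart. With weights that also hold a spread between libraries, 11 of the 17 were still called. Of all 7754 events tested, 2.59% were called with those weights, a share that is not to be set beside 11 of 17.

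**Figure D2:**
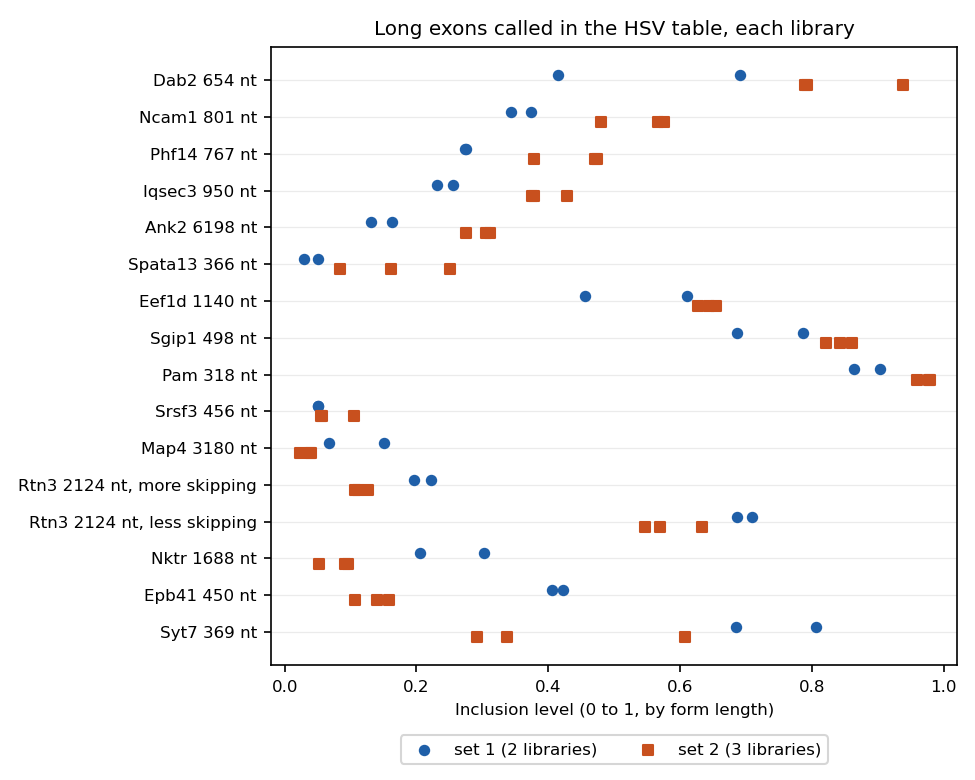
Inclusion level (x axis, 0 to 1) of 16 of the 17 long events called in the HSV table, with exon length in nt; circles are the 2 libraries of set 1 and squares the 3 libraries of set 2. Circles and squares do not overlap in any row; the 2 Rtn3 rows are the same exon with different neighbours.

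A length divisible by 3 does not shift the reading frame after the exon, although such an exon can still hold a stop codon. Divisibility held for 14 of the 17 called long events, the poison exon of Srsf3 among them, but for 141 of the 312 tested, 45.2%. Among shorter events it held for 215 of 269 called and 53.1% of those tested. Among long events, the called share was 3.64% of 165 under 500 nt and 4.88% of 82 from 500 nt to under 1000 nt. It was 7.32% of 41 from 1000 nt to under 2000 nt and 16.7% of 24 of 2000 nt or more. In shorter classes it was 6.43% of 1166 events of 28 to 60 nt and 2.83% of 5872 of 61 to 299 nt. The called share thus did not rise steadily with length over the table. The calls of the longest class include both Rtn3 events, which are 1 exon. Events of that class also had the most reads, a median of 1498 per library against 186 in the class of 300 to 499 nt. Their errors were smaller, a median standard error of 0.42 against 0.56 on the logit scale.

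Among the cytoskeleton events tested, that of the giant exon of Ank2 (6198 nt) had the lowest adjusted p in limma. Ank2 encodes ankyrin-B, and this exon gives its giant neuronal form. Its inclusion level was 0.163 and 0.131 in the libraries of set 1 and 0.275, 0.305 and 0.312 in those of set 2. Every set 2 library was above both of set 1, and inclusion was higher by 0.90 on the logit scale (standard error 0.09). The adjusted p in limma was 6.83e-22, and 0.000121 with weights that also hold a spread between libraries. Inclusion reads numbered 2041 and 1770 in set 1 and 4308, 3586 and 4164 in set 2. Skipping reads numbered 248 and 277 against 268, 193 and 217. Inclusion reads were thus higher in every set 2 library, while the skipping reads of the sets overlapped: the mean was 224 CPM against 519 CPM of inclusion reads, 2.32 times, and 30.9 against 29.1 CPM of skipping reads. The start inside this exon, shown above, lies within the counted sequence, and the table does not separate reads by where their transcript began. In the HSV table the exon is at chr3:126644528-126650725 on the minus strand; the sources used here do not name that table's build, and its coordinates are printed as listed.

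Map4 and Epb41 went the other way. Map4 stabilises microtubules, and the inclusion level of its exon of 3180 nt (chr9:109939792-109942971, plus strand) was 0.150 and 0.067 in set 1 and 0.040, 0.024 and 0.039 in set 2. All levels were low, and the second library of set 1 was nearer to set 2 than the first. The change was -1.06 on the logit scale (standard error 0.19, adjusted p = 3.69e-06 in limma); without the first library of set 1 it was not called (adjusted p = 0.0817). Epb41, which ties spectrin to actin under the membrane, included its exon of 450 nt (chr4:131492930-131493379, minus strand) at 0.406 and 0.423 in set 1 and 0.106, 0.159 and 0.140 in set 2. The sets lay far apart on few reads, 17 to 47 inclusion and 15 to 36 skipping reads per library. The change was -1.49 (standard error 0.38, adjusted p = 0.00491 in limma), and the call was lost without either library of set 1 (adjusted p = 0.0590 and 0.0799). Of 16 cytoskeleton events tested, 3 were called, 1 higher and 2 lower, where 3.69% of all events tested were called. The gene lists were chosen with earlier results of these data known, so the counts within them test no gene theme. The median change was -0.29 on the logit scale over the list and -0.08 over all long events tested. The cytoskeleton events not called were in Map1a, Mapt, Macf1, Dst, Epb41l1, Epb41l2, Epb41l3, Clip1, Ank1 and Nav2. The authors' deposited table has an FDR below 0.05 for 5 of the 16, where 12.6% of all tested events have one. Both Ank1 events are among the 5. These Ank1 exons, of 375 and 387 nt, had an FDR of 0.0246 and 0.0290 in the authors' deposited table, on 0 skipping reads in set 1 and 1, 3 and 10 in set 2. Their adjusted p in limma was 0.700 and 0.723. Nav2 had levels of 0.520 and 0.609 against 0.782, 0.772 and 0.721, and an adjusted p of 0.471 in limma.

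Rtn3 belongs to the reticulons, which bend membranes of the endoplasmic reticulum (ER), and its long form is known as a receptor that sends ER to lysosomes. Its exon of 2124 nt (chr19:7530790-7532913, minus strand) has 2 events with different skipping junctions and nearly the same inclusion reads. In the event with more skipping, the inclusion level was 0.222 and 0.196 in set 1 and 0.112, 0.106 and 0.127 in set 2. The set 2 libraries were all lower and close to each other, a change of -0.71 (standard error 0.05, adjusted p = 1.82e-42 in limma). With weights that also hold a spread between libraries, the adjusted p in limma was 0.00243. Inclusion reads numbered 3116 and 2742 against 2821, 2597 and 2655, and skipping reads 720 and 743 against 1477, 1438 and 1206. The difference thus sat in the skipping reads, 86.1 against 177 CPM, 2.06 times, while inclusion reads were 344 and 348 CPM. In the other event the level was 0.709 and 0.686 against 0.547, 0.633 and 0.570. It too was lower in every set 2 library, by a change of -0.52 (standard error 0.13, adjusted p = 0.00415 in limma), a call lost without the first library of either set (adjusted p = 0.165 for set 1 and 0.0737 for set 2). The exon's level was therefore about 0.2 or 0.7 in set 1 depending on which junction stands for skipping. Rtn4, the gene of Nogo, had its exon of 2361 nt at 0.994 and 0.972 against 0.963, 0.964 and 0.978 (adjusted p = 0.747 in limma), with 2 to 20 skipping reads per library.

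Synaptic and adhesion genes held 3 calls among 9 events tested, 1 higher and 2 lower, where 3.69% of all events tested were called. Ncam1, the neural cell adhesion molecule, has an exon of 801 nt (chr9:49314958-49315758, minus strand) that lengthens its cytoplasmic part. Its inclusion level was 0.373 and 0.343 in set 1 and 0.576, 0.567 and 0.480 in set 2. All set 2 libraries were higher, by 0.74 (standard error 0.17, adjusted p = 0.00107 in limma), and without the second library of set 1 the call was lost (adjusted p = 0.0651). Both forms were more abundant in set 2, inclusion reads by 2.91 times and skipping reads by 1.39 times. Syt7, a calcium sensor of exocytosis, had an exon of 369 nt (chr19:10500789-10501157, plus strand) at 0.685 and 0.806 in set 1 and 0.337, 0.607 and 0.292 in set 2. The second library of set 2 was closest to set 1, the change was -1.43 (standard error 0.37, adjusted p = 0.00544 in limma), and it was lost without either library of set 1 (adjusted p = 0.0854 and 0.120) or the third of set 2 (0.0576). Events of Ptprf, Ptprd, Nrxn3 and Sorbs2 were not called.

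Of 4 events of splicing and RNA-binding genes tested, 1 was called, in Srsf3, where 3.69% of all events tested were called. Srsf3 is an SR splicing factor that limits its own level through this poison exon of 456 nt (chr17:29176399-29176854, plus strand). Inclusion was 0.050 and 0.051 in set 1 and 0.055, 0.105 and 0.056 in set 2. Only the second library of set 2 stood well above set 1. The change was 0.37 (standard error 0.11, adjusted p = 0.0247 in limma), and without that library the adjusted p was 0.782; it was also lost without either library of set 1 (0.176 and 0.153). The FDR in the authors' deposited table was 0.0720. Mbnl1, a muscleblind splicing regulator, had an exon of 1049 nt at 0.924 and 0.926 against 0.802, 0.870 and 0.820 (adjusted p = 0.376 in limma). The sets did not overlap there, and the authors' deposited table gives an FDR of 0.0489. Mbnl2 and Matr3 were not called, at levels of 0.932 to 1.000.

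The lists of chromatin, interferon and trafficking genes held no long event called in limma. Of 4 chromatin events tested, 1 had an unadjusted p below 0.05 and 1 an FDR below 0.05 in the authors' deposited table. These counts were 0 and 0 of 2 for interferon genes, and 1 and 1 of 1 for trafficking genes. Over all tested events, 12.6% have such an FDR. The share with an unadjusted p below 0.05 was not computed over all events. The chromatin event is an exon of 563 nt in the zinc finger gene Zfp644, at 0.771 and 0.257 in set 1 and 1.000 in each library of set 2. It rested on 1 and 17 skipping reads in set 1 and none in set 2 (adjusted p = 0.236 in limma, FDR of 8.57e-06 in the authors' deposited table). The trafficking event is the exon of 303 nt in Synrg, a partner of the clathrin adaptor AP-1, at 0.034 and 0.072 against 0.075, 0.117 and 0.135 (adjusted p = 0.169 in limma). Xaf1, an interferon response gene, had 92 and 116 inclusion reads in set 1 and 922, 909 and 972 in set 2 in its exon of 318 nt. Its inclusion level was 1.000 and 0.974 against 0.970, 0.936 and 0.943 (adjusted p = 0.859 in limma), so the reads of the exon were higher in every set 2 library while its level was near 1 in all of them.

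The other calls lay outside these lists. Pam, the enzyme that amidates neuropeptides, included its exon of 318 nt (chr1:99760780-99761097, minus strand) at 0.903 and 0.864 in set 1 and 0.979, 0.959 and 0.978 in set 2. The sets stood apart on few skipping reads, 17 and 28 against 5, 11 and 5, with a change of 1.45 (standard error 0.37, adjusted p = 0.00539 in limma) that was lost without the second library of set 1 (0.160). Spata13, a guanine nucleotide exchange factor for small GTPases, included its exon of 366 nt (chr14:61325551-61325916, plus strand) at 0.030 and 0.050 against 0.084, 0.251 and 0.161. The set 2 libraries spread widely, and the change of 1.41 (standard error 0.37, adjusted p = 0.00627 in limma) was lost without the first library of set 1 (0.185) or the second of set 2 (0.0997). Nktr, a cyclophilin with arginine and serine repeats, included its exon of 1688 nt (chr9:121647506-121649193, plus strand) at 0.206 and 0.302 against 0.092, 0.096 and 0.052. All set 2 libraries were lower, a change of -1.28 (standard error 0.36, adjusted p = 0.0163 in limma) lost without either library of set 1 (0.0943 and 0.146) or the third of set 2 (0.130).

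Phf14, a PHD finger protein of chromatin, included its exon of 767 nt (chr6:11883253-11884019, plus strand) at 0.275 and 0.273 in set 1 and 0.471, 0.378 and 0.474 in set 2. Its change of 0.71 (adjusted p = 0.0110 in limma) was kept only without the second library of set 2, and the other omissions gave 0.0754 to 0.0995. Sgip1, an endocytosis protein that binds endophilin, included its exon of 498 nt (chr4:102593627-102594124, plus strand) at 0.786 and 0.686 against 0.822, 0.843 and 0.861. The libraries of set 1 were apart from each other, and the adjusted p of 0.0149 in limma became 0.634 without the second of them, 0.0553 without the second and 0.0972 without the third of set 2. Dab2, a clathrin adaptor, included its exon of 654 nt (chr15:6379296-6379949, plus strand) at 0.691 and 0.415 against 0.793, 0.790 and 0.938. The first library of set 1 had 2 skipping reads and the second 44, and the adjusted p of 0.0233 in limma became 0.796 without the second and 0.0924 to 0.113 without any library of set 2.

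Iqsec3, an exchange factor of inhibitory synapses, included its exon of 950 nt (chr6:121328978-121329927, minus strand) at 0.255 and 0.231 in set 1 and 0.429, 0.378 and 0.376 in set 2. Both forms were more abundant in set 2, inclusion reads by 3.58 times and skipping reads by 1.77 times. Its adjusted p of 0.0362 in limma became 0.238 and 0.245 without a library of set 1 and 0.178 without the first of set 2. Eef1d, an elongation factor whose long form acts as a transcription factor, included its exon of 1140 nt (chr15:75733109-75734248, minus strand) at 0.610 and 0.456 against 0.654, 0.627 and 0.644. The second library of set 1 alone was far below the rest. The adjusted p of 0.0389 in limma became 0.839 without it and 0.166, 0.0644 and 0.105 without each library of set 2 in turn, and the authors' deposited table gives an FDR of 0.291. Of the 17 calls, 3 held without each library in turn, among them Ank2 and the Rtn3 event with more skipping. No call changed sign.

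Which form moved differed between these exons. Of the 10 events with higher inclusion, 9 had more inclusion reads by CPM in set 2 and 8 had fewer skipping reads. Of the 7 with lower inclusion, all had more skipping reads and 4 had fewer inclusion reads. The larger log2 change was of the skipping reads in 10 of the 17.

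**Figure D3:**
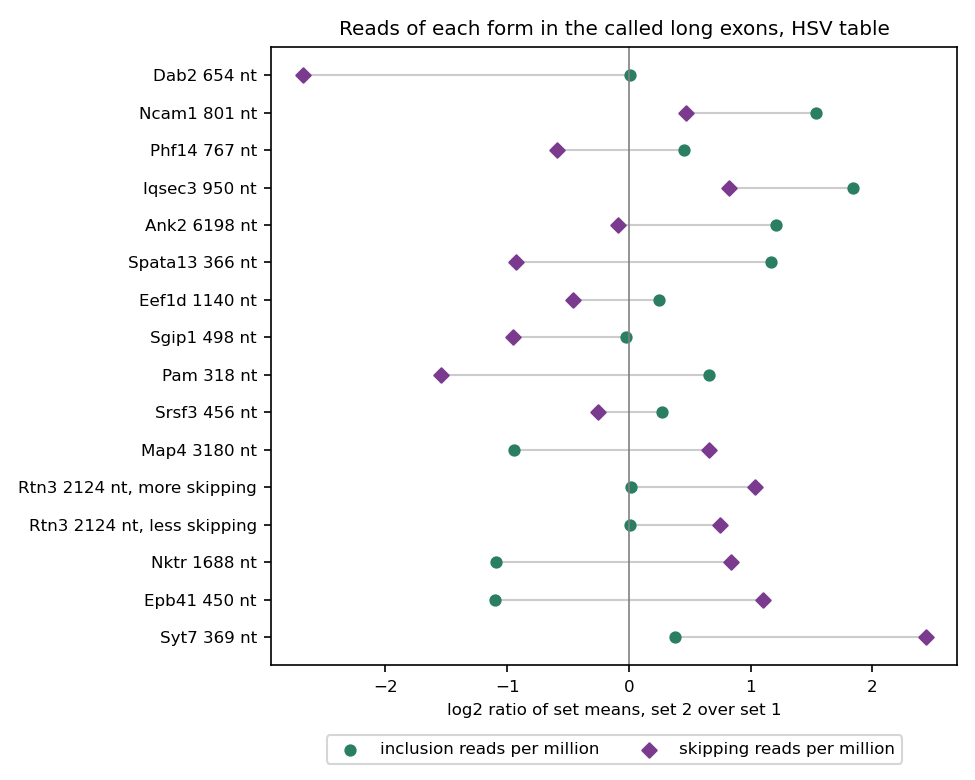
Log2 ratio of set means (set 2 over set 1) of inclusion reads (circles) and skipping reads (diamonds), both in CPM, for 16 of the 17 long events called in the HSV table. Ank2 moved by 1.21 in inclusion reads and -0.09 in skipping reads, and Rtn3 by 0.02 and 1.04.

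The authors' deposited table gives an FDR below 0.05 for 59 of the 1141 long events, 5.17%, where 4.87% of all listed events have one. Among the 312 tested these were 46, 14.7%, where 12.6% of all tested events have one in the authors' deposited table. Of the 17 limma calls, 15 were among them. Another 13 of the 59 had too few reads of the rarer form or too few reads in all to be tested. One of these is Porcn, an acyltransferase for Wnt proteins, with an exon of 947 nt at 1.000 and 1.000 in set 1 and 0.888, 0.702 and 0.819 in set 2, and an FDR of 0.00419 in the authors' deposited table.

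The longest exons apart from those called were near the ends of the scale or in between with no difference called. Map1a, a microtubule-associated protein of neurons, has the longest one tested, 8104 nt, at 0.998 and 0.986 against 0.993, 1.000 and 1.000. It rested on 0 to 9 skipping reads beside 32661 to 44194 inclusion reads per library. Naca, whose exon of 5916 nt gives a form of skeletal muscle and heart, was at 0.001 in all 5 libraries. Vcan, an extracellular matrix proteoglycan, has an exon of 5217 nt for a stretch that carries sugar chains, at 0.250 and 0.350 against 0.295, 0.349 and 0.316. Mprip, which binds myosin phosphatase, had its exon of 3804 nt at 0.437 and 0.453 against 0.483, 0.389 and 0.509. These sets overlapped, and the adjusted p in limma was 0.700 for Map1a, 0.731 for Naca, 0.890 for Vcan and 0.944 for Mprip. Gnas, the stimulatory G protein of striatal dopamine signalling, was among the deepest: the exon of 2327 nt whose start is shown above had 2527 and 2918 inclusion reads in set 1 and 5805, 6099 and 4980 in set 2. Its level was 0.975 and 0.946 against 0.983, 0.937 and 0.929 (adjusted p = 0.837 in limma). Hpca, a calcium sensor, had 29800 and 25149 inclusion reads in set 1 and 7930, 8427 and 6782 in set 2 in its exon of 399 nt, at levels of 0.997 to 1.000. For both genes the inclusion reads of the sets did not overlap, at levels close to 1.

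The second table asked the same of the 2 sets of dCas9-SET2 runs. Its runs were shallow, from 79799 to 106251 reads over all events in set 1 and from 56946 to 84870 in set 2, with a median of 8.62 reads per run for long events and 4.67 for shorter ones. The authors' deposited table calls 17 of the 228 long events that have an adjusted p (padj below 0.05), 7.46%, where 4.96% of all events are called. With a mean of at least 5 reads per run, it calls 12 of 150 long events, 8.00%, where 5.51% of all such events are called. The authors' dPSI was above 0 in 6 of these and below 0 in 6. The runs of a set stand under 4 sample names and are not independent. No test was planned for this table for that reason. The limma fit below treats each run as a replicate, so its p-values are descriptive only. In limma over the 15 runs of each set, with the sets unpaired, 0 of 127 long events were called, where 3 of all 2389 events were, 0.126%. An unadjusted p below 0.05 was found for 20 of the 127, a share not computed over all events. The lowest adjusted p of a long event in limma, 0.0601, was that of Srsf3.

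For each of the 12, the level pooled over the runs of a set follows with its exact 95% binomial interval (Clopper-Pearson, carried to the level), which covers counting error only. Nktr, with the exon of 1688 nt (chr9:121738388-121740075, GRCm38), had the largest dPSI of the 12 in the authors' deposited table, 0.405. Its pooled level was 0.542 (0.440 to 0.651) in set 1 and 0.923 (0.768 to 0.990) in set 2. Over runs the lowest, median and highest levels were 0.181, 0.590 and 1.000 in set 1 and 0.000, 1.000 and 1.000 in set 2. The difference came from 24 skipping reads in 14 runs of set 1 and 2 in 2 runs of set 2 (padj of 0.000345 in the authors' deposited table, adjusted p = 0.280 in limma over runs). Srsf3 had its poison exon (chr17:29039454-29039909) at 0.296 (0.268 to 0.325) in set 1 and 0.438 (0.396 to 0.482) in set 2. Its runs ran from 0.161 over a median of 0.322 to 0.546 in set 1, and from 0.273 over 0.448 to 0.641 in set 2, so the runs overlapped while the pooled intervals did not. The authors' deposited table gives it a dPSI of 0.136 and a padj of 0.0198.

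The other exons with a higher dPSI in the authors' deposited table were those of Abhd14a, Mprip, Hnrnpl and Sipa1l1. Mprip had the most reads: its exon of 3804 nt was at 0.297 (0.279 to 0.315) in set 1 and 0.333 (0.309 to 0.358) in set 2, with padj of 0.0118 in the authors' deposited table. Over runs the lowest, median and highest levels were 0.240, 0.295 and 0.366 in set 1 and 0.216, 0.383 and 0.488 in set 2. Hnrnpl, an RNA-binding splicing regulator, had the exon of 497 nt whose start is shown above at 0.590 (0.478 to 0.704) and 0.672 (0.473 to 0.852). Those intervals overlap widely, on 21 and 6 skipping reads, although the dPSI in the authors' deposited table is 0.324. Sipa1l1, a Rap regulator at synapses, was near 0 in both sets, at 0.007 (0.004 to 0.011) and 0.017 (0.012 to 0.024) for 435 nt. Abhd14a, a hydrolase-like protein, had an exon of 309 nt at 0.392 (0.288 to 0.513) and 0.478 (0.350 to 0.621). The intervals of Abhd14a overlap too, although its dPSI in the authors' deposited table is 0.347. Another Abhd14a event, of 304 nt with the same skipping reads and 4.47 reads per run, has a padj of 0.369 there.

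Inclusion was lower in set 2, by the dPSI of the authors' deposited table, in Crtc2, Smim20, Ndufv3, Mpg, Gpsm2 and Wnk1. Crtc2, a coactivator of CREB, had its exon of 407 nt at 0.813 (0.753 to 0.865) in set 1 and 0.725 (0.660 to 0.785) in set 2. Its runs had a median of 0.850 in set 1 and 0.723 in set 2 and reached 1.000 in both. Ndufv3, a subunit of respiratory complex I, has a long exon of 1092 nt found in its larger form, at 0.170 (0.156 to 0.185) and 0.140 (0.128 to 0.153). Its runs ran from 0.127 to 0.210 in set 1 and from 0.085 to 0.221 in set 2, and so overlapped. Smim20, a mitochondrial membrane protein, went from 0.189 (0.135 to 0.259) to 0.10 (0.054 to 0.171) for 309 nt. Mpg, a DNA repair glycosylase, went from 0.310 (0.225 to 0.414) to 0.171 (0.117 to 0.243) for 370 nt, and Gpsm2, which orients the mitotic spindle, from 0.672 (0.553 to 0.784) to 0.530 (0.398 to 0.670) for 304 nt. For Wnk1, a kinase of ion transport, the pooled levels of the exon of 1236 nt were 0.068 and 0.073, a difference of 0.005, where the dPSI in the authors' deposited table is -0.0185. The pooled difference had the sign opposite to that dPSI in 25 of the 152 long events with 5 reads per run.

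**Figure D4:**
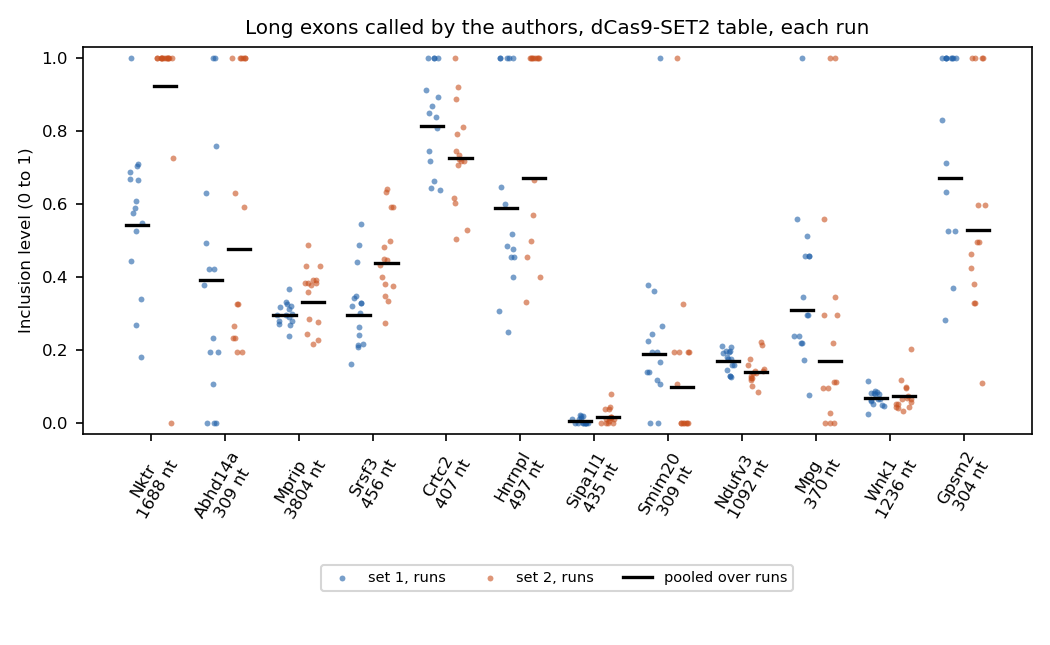
Inclusion level (y axis, 0 to 1) in each run of the dCas9-SET2 table for the 12 long exons with 5 or more reads per run that the authors' deposited table calls, 15 distinct runs per set (runs with no read are left out). Black bars are levels pooled over the runs of a set; the runs of the sets overlap in all 12 exons.

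Of the longest exons in that table, Ank3, which encodes ankyrin-G of the axon initial segment, has 7674 nt and was mostly included, at 0.931 (0.893 to 0.958) in set 1 and 0.945 (0.90 to 0.974) in set 2. Its relative Ank2 was at 0.317 (0.297 to 0.337) and 0.314 (0.291 to 0.339), with padj of 0.421 in the authors' deposited table. Ank2, which had the lowest adjusted p of the exons with higher inclusion in the HSV table, thus had overlapping intervals here. Vcan was at 0.446 (0.356 to 0.548) and 0.695 (0.510 to 0.862), on 28 and 6 skipping reads (padj of 0.0665 in the authors' deposited table). Plec, the cytoskeletal linker plectin, had 3381 nt at 0.973 and 0.946, on 3 and 4 skipping reads.

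To set the tables side by side, events were matched by gene, strand, exon length and the lengths of both introns, which paired 4471 events. Of 172 long pairs, 121 in 113 genes had enough reads in both. Their levels followed each other, with Spearman correlations across exons of 0.880 to 0.908 and Pearson correlations of 0.884 to 0.906 over the 4 pairings of sets. Exons are not independent replicates, and the tables share exon lengths in the level. The mean levels were within 0.1 of each other in 76 of 121 exons and more than 0.3 apart in 8, and 80 of 121 were higher in the dCas9-SET2 table. Among those 8 were Mapk1ip1, Nktr, Ptprf, Rusc1, Synrg, Mtf2, Srsf3 and the Rtn3 event with more skipping, which was at 0.504 and 0.488 in the dCas9-SET2 table against 0.209 and 0.115 in the means of the HSV sets. The tables were processed separately, so no such gap was tested.

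**Figure D5:**
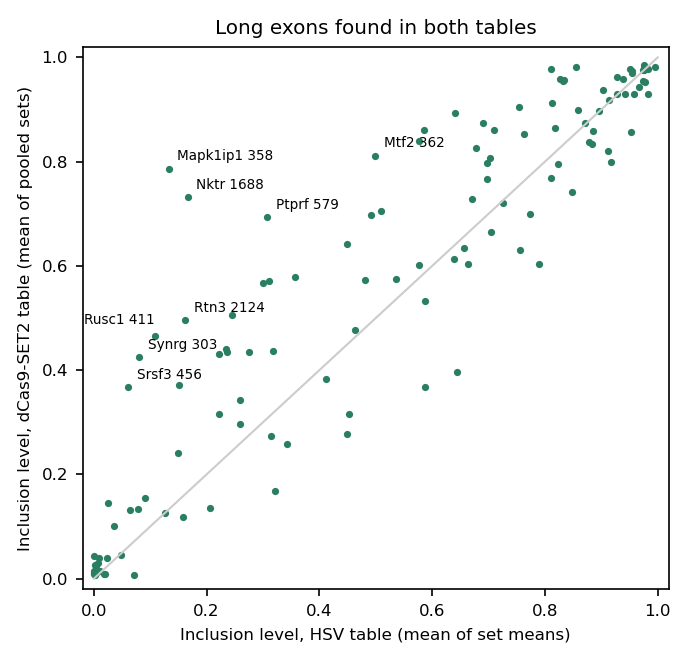
Inclusion level of the 121 long events matched between the tables, as the mean of the 2 set means in the HSV table (x axis) and of the 2 pooled sets in the dCas9-SET2 table (y axis), with the line of equal levels. Most points lie along the line; the 8 named exons lie more than 0.3 above it, with their length in nt.

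Of the 17 events called in the HSV table, 15 were matched with depth in the other table, and the authors' deposited table calls 2 of them there, Nktr and Srsf3. Nktr was lower in set 2 of the HSV table and higher in set 2 of the dCas9-SET2 table. Srsf3 was higher in set 2 of both. Since the treatment of each set is not known, neither case says whether the treatments moved these exons alike.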

How the data were processed

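RNA libraries of mouse nucleus accumbens were read from 2 deposited tables of exon skipping. The submitters' processing notes name STAR 2.4.1d, Bowtie2, mm9 and mm10 for the series with no role; no source used here names the program behind the events. Inclusion and skipping read counts, as deposited by the authors, stand joined by commas in cells with no sample names, so 5 library and 32 run columns carry no sample and sets were compared as listed; 1 run of each dCas9-SET2 set repeats another and was left out. The p-value, FDR and padj of each event, and the difference scores (inclusion level difference and dPSI), were made by the authors and deposited with the tables; no source used here names their test. Inclusion levels recomputed from reads and form lengths matched the deposited levels of long events in 100% within 0.001.

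No count model was run, since the counts are not columns of counts. As planned for such tables, limma 3.58.1 (R 4.3.3) was run on logit inclusion, with 0.5 added to both counts, over all 7754 events that averaged 20 reads a library and had 10 of the rarer form, weighted by reads, with Benjamini-Hochberg adjustment and calls at 0.05. Differences are set 2 minus set 1, so the authors' HSV difference was negated. On data simulated from these libraries with 200 changed events, the fit made 124 calls, 4 false, and recovered 44.9% of logit changes of 1 and 85.9% of 2. With a spread between libraries (SD 0.137, estimated from 120 events deep in both forms) it made 118 calls, 18 false. Weights that hold this spread, added after seeing the data, made 111 calls, 6 false.

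Named long exons were all those called, the padj calls of the dCas9-SET2 table with 5 reads per run, the longest and deepest ones, and members of gene lists; Porcn, the second Rtn3 event and the exons over 0.3 apart between tables were picked after their values were seen. Members, lists and alternatives were chosen with earlier results of these data known. Symbols matched 912 of the 926 HSV genes with a long exon. HSV coordinates are as listed: 11.4% of those long exons lay in the GRCm38 span of their gene. The figure and level scripts used Python 3.11.15 and matplotlib 3.10.9. Chromatin samples were not used here, and 1 gene with a called event is not reported here by name.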

Additional observations from a re-analysis of the deposited data

How the results depend on the processing

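The 17 long events called in the HSV table were 17 with 1 added to each count, 13 with no filter, 15 with a filter of 50 reads per library and 30 of the rarer form, and 16 with a spread trended on reads. With weights that hold the spread between libraries, an alternative chosen after seeing the data, 11 of the 17 were called. Phf14, Sgip1, Srsf3, Iqsec3, Eef1d and the Rtn3 event with less skipping were lost (adjusted p in limma 0.0793 to 0.410). Of all 7754 events tested, 2.59% were then called, a share that is not to be set beside 11 of 17. With no weights limma called 0 of the long events and 0 of all events. An unadjusted p below 0.05 was then found in 31 of the 312 long events, a share not computed over all events. Without each library in turn the count ran from 8 to 13, with 8 without either library of set 1. Among these limma alternatives, calls over all events are given only for the weights with added spread and for no weights. The other counts do not say whether long events lost calls more than all events did. The FDR in the authors' deposited table calls 46 of the 312 long events tested, where 12.6% of all tested events have one. A length minimum of 500 nt left 11 calls and one of 1000 nt left 7, since fewer events enter. Counted once per exon or gene there were 16. In the dCas9-SET2 table, the 17 calls of the authors' deposited table were 12 with 5 reads per run, 2 at padj below 0.01, 8 with a minimum of 500 nt, 17 per distinct exon and 0 in limma over runs. With the repeated run of each set kept, a choice added after seeing the data, 12 had 5 reads per run. Over runs, limma then called 0 of 129 long events and 5 of all 2416 events. In 19 of the 129 the unadjusted p was below 0.05, a share not computed over all events. The Wnk1 difference of -0.0185 in the authors' deposited table became 0.00523 when runs were pooled, and 0.00321 with the repeated runs kept. Mprip went from 0.0686 in the authors' deposited table to 0.0365 pooled. No pooled difference of the 12 changed sign between counting the repeated runs once and keeping them. The cause of these shifts was not tested beyond the fewer events of the length minimums. No paired analysis was possible because the columns carry no replicate numbers.

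Depth limited most long exons through their few skipping reads, a median of 7.40 per library against 9.40 in shorter events tested. An event not called is no evidence of equal inclusion. Inclusion reads of the exon body and of its junctions are summed in the tables.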
